A study of Drosophila melanogaster with 9 samples.

Results

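Larvae of 1 Drosophila melanogaster cross, which carries an inducible gene for an always active insulin receptor, were compared with and without a heat shock. All 10372 genes of the deposited table were included, with 6 of its 9 libraries. Both groups came from virgin females carrying the driver hs-GAL4 and males of Bloomington stock 8263, which carry UAS-InR.A1325D. In this system a heat shock promoter makes the yeast activator GAL4, and GAL4 switches on genes placed behind UAS sites, here the receptor. InRCA_HS larvae, called heated below, were held at 37 °C for 30 min, and InRCA_noHS larvae, called unheated, were only moved to a new vial and stayed at 25 °C. Fat bodies came from female larvae that were still feeding, at mid-third instar, and were collected after 6 h of recovery, with 3 libraries in each group. The remaining group, control_HS, had the same mothers and the same heat shock but fathers of stock 6598 (y1w1118) with no receptor transgene, and its 3 libraries are given beside the others. The male stock was common to the heated and unheated groups, so heat and receptor induction differed together and cannot be told apart between them. The heat shock promoter is not restricted to the fat body, so the receptor could also be made in other tissues of the larva.

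The insulin receptor is a cell surface kinase that, through PI3 kinase and Akt, promotes uptake and storage of nutrients and holds the transcription factor FOXO out of the nucleus. The fat body is the organ in which larvae store triglyceride and glycogen, and it secretes most proteins of the blood (hemolymph), immune peptides included. Heat shock switches on genes of chaperones, proteins that help others to fold, and most of this response is short-lived.

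The values are adjusted counts, that is, read counts that were scaled by the authors to a common library size. Whole reads recovered from them summed to between 8761124 and 17602388 per library, and every gene had at least 1 read in every library. The table thus holds no gene that lacked reads in some library, so genes fully silent in either group could not be counted. The 10 most abundant genes took 32.4% to 40.1% of a library. Across genes, which are not independent replicates, the log2 values of libraries correlated at 0.962 to 0.976 (Pearson's r) within the heated and unheated groups and at 0.953 to 0.966 between them. Markers of fat body were abundant, with Fbp1, the receptor for larval serum proteins, at 1479100.0, 1014800.0 and 1430900.0 in the unheated libraries and 808120.0, 981400.0 and 933110.0 in the heated ones, while Adh, another gene of the marker list, was low at 18.8, 12.4 and 19.3 and 7.11, 7.44 and 51.0. The summed level of salivary gland markers ranged from 34584 to 106550.0 in unheated and from 59299 to 181550.0 in heated libraries, and 0 of its 10 genes passed the test, with 7 above 0 and a median log2 fold change of 0.66. In bulk tissue, fewer cells of a type and less RNA per cell cannot be told apart. Whether replicate libraries stem from separate cultures is not in the labels, and the p-values here reflect the spread between libraries, which may be technical.

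In heated larvae 182 genes were higher (1.75% of those tested) and 83 were lower (0.800%) at an adjusted p under 0.05, together 2.55%. Such genes are called here, and "rose" and "fell" are used only of them. Rises were larger than falls. Among the risen genes 153 differed by more than 2-fold, 65 by more than 4-fold and 26 by more than 8-fold, against 60, 7 and 1 of the fallen genes. The median change was 3.10-fold for genes that rose and 2.26-fold for genes that fell. In all 265 genes the 3 heated libraries lay outside the range of the 3 unheated ones, which was so upward for 7.52% and downward for 15.8% of all genes. The median log2 difference of all genes was −0.14, and TMM scaling, which moved it to −0.02, gave 238 genes higher and 59 lower. The rises thus made up 68.7% of calls in the main fit, 80.1% with TMM scaling and 81.6% (235 and 53 genes) in edgeR's quasi-likelihood test on recovered reads. They made up 62.1% with only the 6 libraries compared and 62.6% with array quality weights. At an unadjusted p under 0.05 (limma), 621 genes were higher and 919 lower. With 1 of the 6 compared libraries left out, 85 to 120 genes were higher and 16 to 45 lower, below the main counts in every case. With 1 control_HS library left out, 155 to 220 were higher and 85 to 116 lower. The calls of 70 risen and 14 fallen genes held in all 9 such fits. Counts out of 9 fits given below include the 3 without a control_HS library, which keep all 6 compared libraries.

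**Figure D1:**
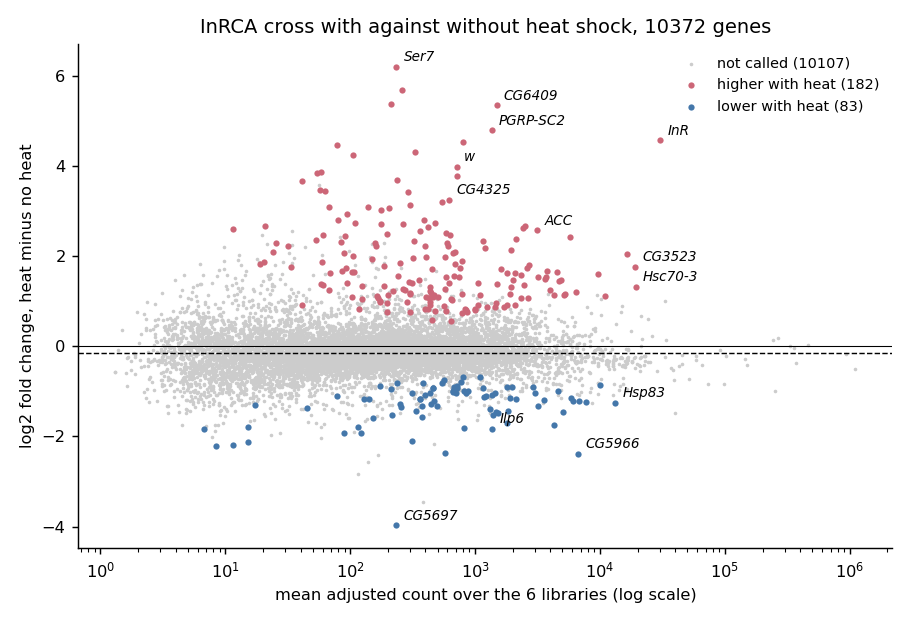
Each of the 10372 genes as 1 point, with the mean adjusted count over the 6 libraries on a log x axis and the log2 fold change (heated minus unheated) on the y axis. The dashed line is the median of all genes, −0.14. The 182 genes that rose reach further from the line than the 83 that fell, and InR stands far right among the largest rises.

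The receptor gene marks the induction. InR (FBgn0013984) stood at 1821, 3662 and 2128 adjusted counts in unheated, 66688, 47774 and 60402 in heated and 743, 785 and 826 in heated control libraries, so unheated larvae of the transgene cross already lay above the control cross. Reads of the resident gene and the transgene are counted together. InR rose 23.8-fold in the fit (a ratio of geometric means; log2 fold change 4.58, SE 0.25, 95% confidence interval 4.03 to 5.12, adjusted p = 8.44e-06, limma). The eye colour gene w, of which a copy usually marks UAS transgenes, moved with it, from 72.0, 112 and 71.8 to 1492, 1302 and 1229, against 52.4, 38.6 and 69.0 in the heated control cross. Below the receptor, 0 of the other 15 members of the list from insulin receptor to FOXO passed the test. They include chico, the receptor's adaptor (log2 fold change −0.12, 95% interval −0.51 to 0.27), the kinase gene Akt1 (−0.03, −0.39 to 0.34) and foxo itself (−0.37, −0.76 to 0.02, adjusted p = 0.358). Thor, which encodes the translation inhibitor 4E-BP and is a target of FOXO, was at 2606, 1387 and 2014 in unheated and 2141, 2106 and 1324 in heated libraries, and the groups overlapped (log2 fold change −0.10). None of the 16 genes of the TOR branch, the growth pathway next to insulin signalling, passed the test (range −0.52 to 0.24).

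Genes of secreted serine proteases were among the largest rises. Ser7, a serine protease gene, was nearly silent without heat, at 4.89, 4.13 and 6.77 adjusted counts, and stood at 607, 387 and 392 after heat (log2 fold change 6.20, SE 0.36, adjusted p = 1.11e-05). Sp212, another serine protease gene, went from 9.99, 2.12 and 25.7 to 552, 522 and 437 (log2 fold change 5.69, adjusted p = 0.000778). CG31326, which RefSeq gives the synonym SPH144, went from 9.57, 7.22 and 11.8 to 273, 193 and 142 (log2 fold change 4.24, adjusted p = 0.000365). In each of these genes every heated library was above 100 and every unheated one under 26. These 3 are the only called members of the list of 16 clip-domain and trypsin-like protease genes (18.8%, against 1.75% of all genes), whose median of −0.25 lies below that of all genes, −0.14. CG9737 and CG9631, not in that list but carrying the protease synonyms SP5 and SP60, rose as well (log2 fold changes 3.83 and 1.62). In CG9737 the first heated library was far above the others (246, 30.1 and 39.0), and all 3 lay above the unheated 3.39, 2.08 and 6.87. Sp212 and CG9631 are next to each other in the Release 6 annotation.

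PGRP-SC2 encodes a secreted amidase that cuts bacterial peptidoglycan and so lowers immune signalling. It went from 43.1, 123.30 and 111 in unheated to 1464, 2008 and 4418 in heated libraries (log2 fold change 4.79, SE 0.51, adjusted p = 0.000878), with the highest value in the third heated library. It was the only called gene among 18 of peptidoglycan recognition and the Imd immune pathway (5.56%, against 1.75% of all genes). CG6409, for which the annotation used here gives no role, combined a high level with a large rise, from 41.2, 97.6 and 77.9 to 3989, 2269.7 and 2445 (log2 fold change 5.35, adjusted p = 1.24e-05). inx7, which encodes a gap junction channel protein, went from 38.1, 88.4 and 83.0 to 1356, 1552 and 1723 (log2 fold change 4.53, adjusted p = 0.000301). CG32557 (Mco4), a multicopper oxidase gene, went from 5.22, 6.18 and 11.1 to 828, 193 and 237, with the first heated library highest (log2 fold change 5.37, adjusted p = 0.000365). CG4325 varied little within groups, at 129.6, 107 and 112 without heat and 1099, 1114 and 1130.4 with heat (log2 fold change 3.26, SE 0.15, adjusted p = 4.09e-06). Further genes among the 20 largest rises were CG34194 (4.46), CG11898 (4.31), the cuticle protein gene Cpr11A (3.68), CG6688 (3.67), CG42808 (3.46), wisp, which encodes a poly(A) polymerase (3.44), and Ugt36Bc, a UDP-glycosyltransferase gene (3.41). Ser7, Sp212, CG31326, PGRP-SC2, CG6409, inx7, CG32557, CG4325, CG34194, Cpr11A, CG6688, CG42808 and wisp kept their calls in each of the 9 fits that left out 1 library. CG9737 (adjusted p = 0.0705, called in 7 of 9), CG9631 (adjusted p = 0.0632, called in 5 of 9), CG11898 (adjusted p = 0.0533, called in 8 of 9) and Ugt36Bc (adjusted p = 0.106, called in 2 of 9) were weakest without InRCA_noHS replicate 2.

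Most of these genes were also high in the heated control cross. PGRP-SC2 stood there at 869.8, 2248 and 825, inx7 at 621, 1659 and 704, CG4325 at 786, 1017 and 802 and CG34194 at 131, 168 and 159. Ser7 stood at 108, 215 and 79.6, above every unheated and below every heated InRCA library. The comparisons of control_HS with unheated larvae (7.03% of genes called, 3.78% higher and 3.25% lower) and of heated InRCA larvae with control_HS (2.43% called, 1.11% higher and 1.32% lower) share libraries with the main one and also differ in the male stock, so values are set side by side and no overlap of calls is given. Ser7 was 4.33 higher on the log2 scale in control_HS than in unheated larvae (adjusted p = 0.000148) and 1.87 higher in heated InRCA larvae than in control_HS (adjusted p = 0.0253). For PGRP-SC2 the same differences were 3.79 (adjusted p = 0.00255) and 1.003 (adjusted p = 0.336), and for CG34194 they were 4.49 (adjusted p = 0.000218) and −0.03 (adjusted p = 0.976).

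**Figure D2:**
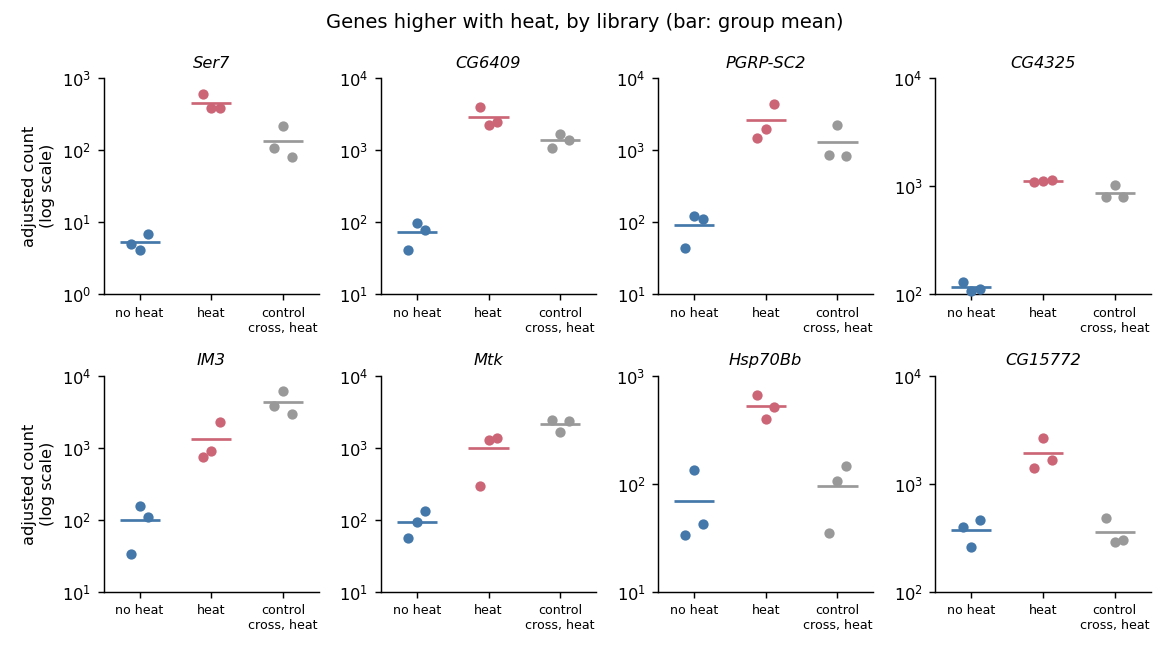
Adjusted counts on a log y axis for 8 genes that rose, 1 point per library and a bar at each group's mean, for unheated and heated larvae of the transgene cross and the heated control cross. Ser7, CG6409, CG4325, Hsp70Bb and CG15772 lie lower in the control cross than in heated InRCA larvae. IM3 and Mtk lie highest in the control cross, and CG4325 shows little spread within a group.

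Of 20 lipogenesis genes 5 rose, and 10 had a log2 fold change below 0. ATPCL, whose enzyme splits citrate into acetyl-CoA, went from 2834, 2572 and 2200.2 adjusted counts to 6679, 6857 and 7097 (log2 fold change 1.45, SE 0.18, adjusted p = 0.00278). ACC, the gene of acetyl-CoA carboxylase, which commits acetyl-CoA to fatty acids, went from 1016, 810.1 and 824 to 3980.2, 4939 and 7345 (log2 fold change 2.58, SE 0.35, adjusted p = 0.00412). CG3523 (FASN1), the fatty acid synthase gene, went from 12322, 5879 and 7983 to 19782, 29978 and 38131 (log2 fold change 1.76, SE 0.36, adjusted p = 0.0273). The groups of each gene were apart, and the third heated library was the highest in all 3 genes. AcCoAS, which makes acetyl-CoA from acetate (1.54, adjusted p = 0.027), and mdy, the diacylglycerol acyltransferase of the last step to triglyceride (1.14, adjusted p = 0.0467), are the other called genes of the list (25%, against 1.75% of all genes, list median 0.13). Members that did not pass include HLH106, the gene of SREBP, a transcription factor of lipid synthesis (0.28, adjusted p = 0.595), desat1, a fatty acid desaturase gene (0.76), and Men, the malic enzyme gene (−0.81, adjusted p = 0.213).

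The oxidative arm of the pentose phosphate pathway supplies NADPH, which fatty acid synthesis consumes. Its dehydrogenase genes both rose. Zw, the glucose-6-phosphate dehydrogenase gene, went from 199, 160.4 and 131 to 597, 738 and 599 (log2 fold change 1.99, adjusted p = 0.0104), and Pgd, for the next dehydrogenase, from 1042, 981 and 1009.8 to 2663, 3379 and 3448 (log2 fold change 1.64, SE 0.26, adjusted p = 0.00811). They were 2 of 7 genes of the pathway (28.6%, against 1.75% of all genes). Tal, the transaldolase gene of the non-oxidative arm, was at 1761, 1683 and 1607 and 2608, 2846 and 3385, without overlap, but did not pass the test (log2 fold change 0.80, adjusted p = 0.207). CG33138 (AGBE), the glycogen branching enzyme gene, went from 853, 689.8 and 617 to 2536, 3166 and 3796 (log2 fold change 2.13, adjusted p = 0.00814). It was the only called gene of 18 for glycogen, trehalose and gluconeogenesis (5.56%, against 1.75% of all genes). Pepck, of gluconeogenesis, had a log2 fold change of 0.11 (95% interval −0.80 to 1.02), and 0 of 13 glycolysis genes passed. ATPCL, ACC, Pgd and CG33138 kept their calls in each of the 9 fits that left out 1 library. CG3523 (adjusted p = 0.118, called in 5 of 9) and AcCoAS (adjusted p = 0.118, called in 4 of 9) had their highest adjusted p without InRCA_noHS replicate 2. mdy (adjusted p = 0.198, called in 3 of 9) and Zw (adjusted p = 0.0558, called in 8 of 9) were weakest without InRCA_noHS replicate 3. Within lipogenesis the number of called genes was 4, 2 and 2 without InRCA_noHS replicates 1, 2 and 3, 3, 2 and 2 without InRCA_HS replicates 1, 2 and 3, and 5, 5 and 5 without control_HS replicates 1, 2 and 3. Under alternatives it was 2 with no intensity trend and 1 with a minimum of 1.5-fold.

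In the heated control cross most, but not all, of these genes lay above the unheated level in every library. ACC stood at 5179, 14055 and 5826, CG3523 at 25143, 51414 and 31775, Pgd at 2789, 5050.0 and 2248 and CG33138 at 2272, 6518 and 2791. mdy stood at 302, 592 and 617, overlapping with the unheated 309, 326 and 239 (log2 difference 0.73, adjusted p = 0.117). ATPCL stood at 3785, 4749.6 and 3104, below every heated InRCA library, and was higher in heated InRCA larvae by 0.85 (log2, adjusted p = 0.0392) and in control_HS than in unheated larvae by 0.60 (adjusted p = 0.0747). For ACC these differences were −0.52 (adjusted p = 0.482) and 3.09 (adjusted p = 0.000958).

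**Figure D3:**
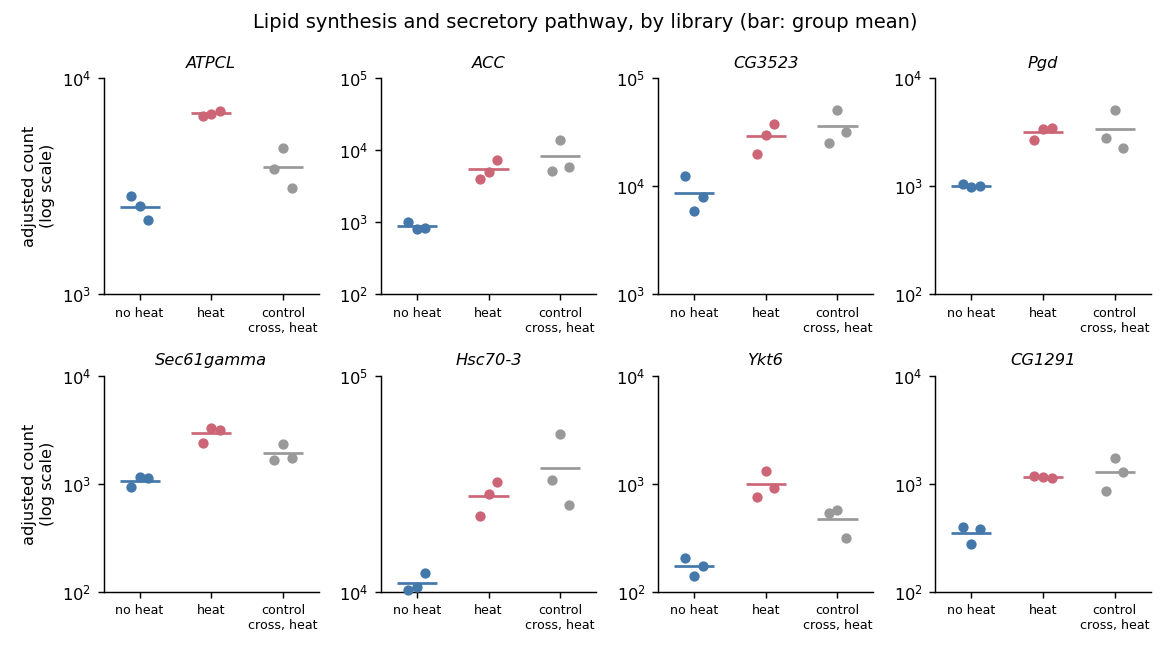
Adjusted counts on a log y axis for 4 genes of lipid synthesis and the pentose phosphate pathway (top) and 4 of the secretory pathway and glycosylation (bottom), 1 point per library and a bar at each group's mean. In all 8 genes the heated InRCA libraries lie above the unheated ones, and in ATPCL, Sec61gamma and Ykt6 they also lie above the heated control cross.

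Genes of the secretory pathway rose at several steps, from the entry into the endoplasmic reticulum (ER) to the Golgi. Proteins enter the ER through the Sec61 channel, and all 3 genes of its subunits rose. Sec61gamma went from 935, 1156 and 1126 to 2412, 3332 and 3179 (log2 fold change 1.46, SE 0.19, adjusted p = 0.00284), Sec61beta from 1039.5, 860.5 and 616 to 2228, 2147 and 2036 (1.38, adjusted p = 0.00588) and Sec61alpha from 3728, 3845 and 4061 to 8099, 8077 and 10692 (1.20, adjusted p = 0.0149). TRAM, whose protein sits beside the channel (1.14), SsRbeta, a subunit of the translocon-associated complex (1.16), SrpRbeta, of the receptor that docks signal recognition particles (0.98), and CG5885 (1.07) rose too. Called were thus 7 of 22 genes for translocation, signal peptidase and signal recognition (31.8%, against 1.75% of all genes). All 22 had a log2 fold change above 0 in the main fit and in each alternative, with a median of 0.69 and a lowest value of 0.26. Examples that did not pass are Srp68, of the signal recognition particle (0.64, adjusted p = 0.0567), and Spase25, of signal peptidase (0.74, adjusted p = 0.0598). Sec61gamma and Sec61beta kept their calls in each of the 9 fits that left out 1 library. Sec61alpha (adjusted p = 0.0632, called in 5 of 9) and TRAM (adjusted p = 0.0774, called in 6 of 9) had their highest adjusted p without InRCA_noHS replicate 2. SsRbeta (adjusted p = 0.111, called in 4 of 9), SrpRbeta (adjusted p = 0.16, called in 2 of 9) and CG5885 (adjusted p = 0.147, called in 2 of 9) were weakest without InRCA_noHS replicate 3. The number of called genes in the list was 2, 2 and 3 without InRCA_noHS replicates 1, 2 and 3, 4, 5 and 2 without InRCA_HS replicates 1, 2 and 3, and 12, 10 and 5 without control_HS replicates 1, 2 and 3. With other settings it was 13 with quantile normalization or the 6 libraries alone, 12 with TMM scaling, 11 with array quality weights, 4 with no intensity trend and 0 with a minimum of 1.5-fold.

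Of the folding factors of the ER lumen, 5 rose. Hsc70-3, the ER chaperone BiP, is among the most abundant genes that rose, from 10148, 10569 and 12274 to 22490.0, 28437 and 32126 (log2 fold change 1.32, SE 0.29, adjusted p = 0.0362). Gp93, the ER form of Hsp90, went from 4372, 4891 and 4809 to 11639, 13998 and 17640.0 (1.60, adjusted p = 0.0129), and CaBP1, a protein disulfide isomerase, from 1147, 1262 and 1093 to 2802, 3676 and 4085 (1.58, adjusted p = 0.0325). In these genes the heated libraries stood in the same order, with the third highest. Crc, the calreticulin gene (1.11, adjusted p = 0.0457), and Fkbp13, a prolyl isomerase gene (0.92, adjusted p = 0.019), are the other called genes of 22 genes of ER folding and the unfolded protein response (22.7%, against 1.75% of all genes, median 0.42). The sensors and transcription factors of the unfolded protein response in the list were not called, with Xbp1 at 0.12, Ire1 at −0.24, PEK at −0.14 and Atf6 at −0.06 on the log2 scale. Outside the list, sel, known in the fly for protein export from the ER, went from 770.3, 647 and 594 to 4926, 3271 and 4700.5 (2.67, adjusted p = 0.000878), and Manf, an ER stress protein that is secreted, from 316, 377 and 333 to 1162, 907 and 985 (1.57, adjusted p = 0.0103). Both were picked after their values had been seen. sel kept its call in each of the 9 fits that left out 1 library. Hsc70-3 (adjusted p = 0.125, called in 3 of 9) and Fkbp13 (adjusted p = 0.0889, called in 4 of 9) had their highest adjusted p without InRCA_noHS replicate 2. Gp93 (adjusted p = 0.0569, called in 5 of 9), CaBP1 (adjusted p = 0.13, called in 2 of 9), Crc (adjusted p = 0.169, called in 2 of 9) and Manf (adjusted p = 0.0509, called in 8 of 9) were weakest without InRCA_noHS replicate 3. Hsc70-3 also missed the threshold with quantile normalization (adjusted p = 0.0565), and the list's count was 0, 0 and 0 without InRCA_noHS replicates 1, 2 and 3, 2, 1 and 0 without InRCA_HS replicates 1, 2 and 3, and 5, 7 and 3 without control_HS replicates 1, 2 and 3. Other settings gave 1 with no intensity trend and 0 with a minimum of 1.5-fold.

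Genes for the coats of vesicles between ER and Golgi had smaller differences. Of 21 COPI and COPII genes, 2 rose (9.52%, against 1.75% of all genes). They were sec13, a COPII cage subunit (1199, 1107 and 1295 to 2225, 2202 and 2169.7, log2 fold change 0.88, adjusted p = 0.0293), and loj, a p24 cargo protein (0.74, adjusted p = 0.0461). All 21 lay above 0 in the main fit and each alternative, with a median of 0.56 and a range of 0.23 to 0.88. Among 31 genes of the Golgi, its tethers and SNARE fusion proteins, 7 rose (22.6%, against 1.75% of all genes, median 0.32), from a list made after earlier results of these data were known. The largest was that of Ykt6, a SNARE that works in fusion with the Golgi, from 207, 139.8 and 172 to 763, 1331 and 907 (log2 fold change 2.50, SE 0.27, adjusted p = 0.000963). p47, a cofactor of the membrane fusion ATPase p97, went from 877, 881 and 890.2 to 2529, 2895 and 2811 (1.63, adjusted p = 0.00378), with little spread in either group. The others were l(1)G0320 (1.06), ergic53, a cargo receptor (0.92), the Golgi scaffold genes Grasp65 (0.87) and GM130 (0.80), and the SNARE gene membrin (0.84). Ykt6 and p47 kept their calls in each of the 9 fits that left out 1 library. loj (adjusted p = 0.153, called in 1 of 9) had its highest adjusted p without InRCA_noHS replicate 1. sec13 (adjusted p = 0.121, called in 3 of 9), l(1)G0320 (adjusted p = 0.0689, called in 6 of 9), Grasp65 (adjusted p = 0.11, called in 3 of 9), GM130 (adjusted p = 0.106, called in 3 of 9) and membrin (adjusted p = 0.173, called in 2 of 9) were weakest without InRCA_noHS replicate 2. ergic53 (adjusted p = 0.109, called in 4 of 9) had its highest adjusted p without InRCA_noHS replicate 3. The count of called coat genes was 0, 0 and 0 without InRCA_noHS replicates 1, 2 and 3, 0, 0 and 0 without InRCA_HS replicates 1, 2 and 3, and 2, 1 and 1 without control_HS replicates 1, 2 and 3. Under alternatives it was 5 with quantile normalization, 4 with TMM scaling and 0 with no intensity trend or a minimum of 1.5-fold. That of Golgi genes was 2, 2 and 3 without InRCA_noHS replicates 1, 2 and 3, 3, 4 and 2 without InRCA_HS replicates 1, 2 and 3, and 7, 8 and 6 without control_HS replicates 1, 2 and 3. With other settings it was 3 with no intensity trend and 1 with a minimum of 1.5-fold.

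Markers of the salivary gland, itself a secretory tissue, had a median of 0.66 beside 0.69 for the translocon list. Their summed level overlapped between heated and unheated libraries and was 15025 to 40946 in the heated control cross, and their part in the secretory pathway rises was not tested.

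Against the heated control cross, these genes took different positions. Hsc70-3 stood there at 32951, 54067 and 25273, CaBP1 at 4691, 14415 and 9591, sel at 4762, 11036 and 8691 and Sec61gamma at 1680.5, 2344 and 1754. Heated InRCA larvae differed from control_HS by −0.38 on the log2 scale in Hsc70-3 (adjusted p = 0.541), by −1.32 in CaBP1 (adjusted p = 0.0665), by 0.63 in Sec61gamma (adjusted p = 0.0989) and by 1.08 in Ykt6 (adjusted p = 0.0665), none of which passed the test.

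**Figure D4:**
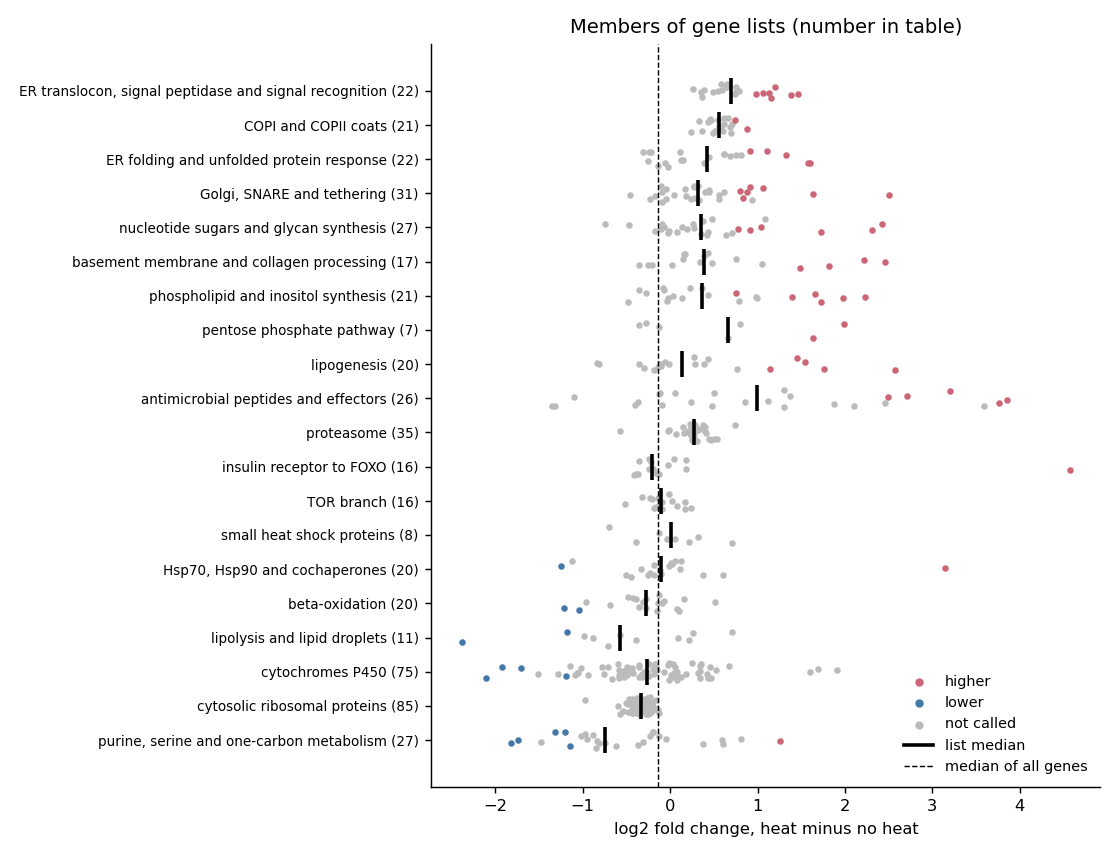
Log2 fold changes (heated minus unheated, x axis) of the members of 20 gene lists, 1 point per gene, coloured by call, with a black bar at each list's median and a dashed line at the median of all genes, −0.14. All members of the translocon list and of the coat list lie right of 0, and all cytosolic ribosomal protein genes lie left of it.

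Among genes of nucleotide sugar and glycan synthesis, 6 rose. CG1291 (Alg2), a mannosyltransferase that builds the lipid-linked sugar chain for N-glycosylation, went from 398, 278 and 384 to 1191, 1156 and 1127 (log2 fold change 1.73, SE 0.24, adjusted p = 0.00426). Gmer, for GDP-fucose (1.04), Csat, a UDP-galactose transporter (0.77), CG10688 (Pmm2), a phosphomannomutase (0.91), and CS-2, a chitin synthase (2.31), also rose. The list as a whole had 6 called genes of 27 (22.2%, against 1.75% of all genes, median 0.35) and was made with earlier results of these data known. In contrast the neighbouring alpha-mannosidase genes CG5322 (LManI) and CG6206 (LManII), for enzymes that take protein-bound sugar chains apart in lysosomes, fell (log2 fold changes −1.14 and −0.86). CG6206 went from 16210.0, 11520.0 and 11409 to 7502, 6351 and 7475 and was not called with quantile normalization, TMM or edgeR (adjusted p = 0.0583, 0.0742 and 0.079). CG1291, CS-2 and CG5322 kept their calls in each of the 9 fits that left out 1 library. CG6206 (adjusted p = 0.138, called in 1 of 9) was weakest without InRCA_HS replicate 2. Gmer (adjusted p = 0.122, called in 3 of 9), Csat (adjusted p = 0.116, called in 3 of 9) and CG10688 (adjusted p = 0.13, called in 2 of 9) had their highest adjusted p without InRCA_noHS replicate 3. The count of the sugar list was 3, 3 and 3 without InRCA_noHS replicates 1, 2 and 3, 3, 3 and 3 without InRCA_HS replicates 1, 2 and 3, and 8, 8 and 5 without control_HS replicates 1, 2 and 3. Other settings gave 3 with no intensity trend and 2 with a minimum of 1.5-fold.

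Membrane lipid genes rose in 6 cases. Osbp, an oxysterol-binding protein that exchanges lipids between ER and Golgi, went from 1308, 1093 and 1240.0 to 4218, 3891 and 3929 (log2 fold change 1.73, adjusted p = 0.00432). Inos, the inositol-3-phosphate synthase gene, went from 1786, 1912 and 1630.5 to 7237, 3967 and 6135 (1.66, adjusted p = 0.0276), and Cct1 (Pcyt1), for the rate-limiting enzyme of phosphatidylcholine synthesis, from 640.5, 463 and 638 to 1177, 1572 and 1855 (1.39, adjusted p = 0.0188). The lipid phosphatase gene laza (2.23), CG11425, with the RefSeq synonym WUN-like (1.98), and the inositol trisphosphate kinase gene IP3K1 (0.75) also rose. That is 6 of 21 genes (28.6%, against 1.75% of all genes, median 0.36) of a list made with earlier results known. Osbp kept its call in each of the 9 fits that left out 1 library. Cct1 (adjusted p = 0.0889, called in 4 of 9), laza (adjusted p = 0.0889, called in 5 of 9) and IP3K1 (adjusted p = 0.171, called in 1 of 9) were weakest without InRCA_noHS replicate 2. Inos (adjusted p = 0.119, called in 4 of 9) and CG11425 (adjusted p = 0.134, called in 4 of 9) had their highest adjusted p without InRCA_noHS replicate 3. The list's count was 3, 1 and 1 without InRCA_noHS replicates 1, 2 and 3, 2, 3 and 1 without InRCA_HS replicates 1, 2 and 3, and 7, 5 and 5 without control_HS replicates 1, 2 and 3. Under alternatives it was 1 with no intensity trend and 0 with a minimum of 1.5-fold.

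The fat body and blood cells make collagen IV for the basement membranes of other organs. Its 2 chain genes, vkg and Cg25C (Col4a1), which are neighbours in the genome, rose together, vkg from 1346, 996 and 1191 to 4118, 3041 and 5531 (log2 fold change 1.81, SE 0.29, adjusted p = 0.00958) and Cg25C from 2991, 1943 and 2714 to 6276, 5813 and 9405 (1.48, adjusted p = 0.0272). Ndg, the nidogen gene, went from 208, 87.5 and 143 to 607, 589 and 744 (2.22, adjusted p = 0.00284), and prc, for the matrix protein pericardin, from 21.6, 18.5 and 11.5 to 55.5, 149 and 107 (2.46, adjusted p = 0.0445). These are 4 of 17 basement membrane genes (23.5%, against 1.75% of all genes), in a list made with earlier results of these data known. The laminin genes LanA (0.76), LanB1 (0.16) and LanB2 (0.18) and the perlecan gene trol (−0.26) did not pass. Blood cell (hemocyte) markers stood beside them. The summed level of the 19 markers ranged from 15386 to 19076 in unheated and from 21239 to 31746 in heated libraries, and 12 of them lay above 0, with only the collagen genes vkg and Cg25C called. The other 7 lay below 0, the lowest at −0.56. Examples picked after their values had been seen are Hml and eater. Hml was at 1297, 1166 and 873 in unheated and 1811, 1302 and 2805 in heated libraries (log2 fold change 0.77, adjusted p = 0.284) and eater at 211, 234 and 142 and 356, 204 and 479.7 (log2 fold change 0.77, adjusted p = 0.416). Neither passed the test, but the heated libraries lay above the unheated ones in Hml and in the summed level, and overlapped with them in eater. Their part in the collagen rise was not tested. Ndg kept its call in each of the 9 fits that left out 1 library. vkg (adjusted p = 0.0533, called in 8 of 9) and Cg25C (adjusted p = 0.118, called in 4 of 9) were weakest without InRCA_noHS replicate 2. prc (adjusted p = 0.181, called in 2 of 9) had its highest adjusted p without InRCA_noHS replicate 3. The basement membrane count was 2, 1 and 2 without InRCA_noHS replicates 1, 2 and 3, 2, 3 and 2 without InRCA_HS replicates 1, 2 and 3, and 4, 4 and 3 without control_HS replicates 1, 2 and 3. With other settings it was 2 with no intensity trend and 1 with a minimum of 1.5-fold.

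Genes of 5 short immune peptides rose. The Bomanins are short peptides secreted by the fat body after activation of the Toll immune pathway. IM3 (BomS3) went from 33.9, 158 and 109.7 to 748, 895 and 2312 (log2 fold change 3.77, SE 0.55, adjusted p = 0.00615), CG15067 (BomBc2) from 2.33, 14.3 and 4.87 to 42.1, 153 and 137 (3.86, adjusted p = 0.00668), IM2 (BomS2) from 39.6, 126 and 44.0 to 189, 511 and 667 (2.71, adjusted p = 0.0188) and IM1 (BomS1) from 25.7, 114.98 and 46.6 to 152, 312 and 539.6 (2.49, adjusted p = 0.0329). In all 4 the second unheated library was the highest of its group and the first heated one the lowest. Mtk, for the antifungal peptide metchnikowin, went from 55.5, 92.5 and 134 to 298, 1311 and 1393 (3.20, adjusted p = 0.0101). These are 5 of 26 peptide and effector genes (19.2%, against 1.75% of all genes, median 0.99, range −1.35 to 3.86). IM4 (Dso1) had a larger difference than IM1 but did not pass (3.59, adjusted p = 0.0567), and neither did the diptericin gene Dpt (−0.13), the attacin gene AttA (−1.31) or the drosomycin gene Drs (0.24). Reads of these short, related genes may be split between near-identical copies.

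Upstream of the Toll receptor, 1 protease gene rose and 1 fell. grass, a protease that relays microbial recognition to Toll, rose from 813, 631 and 810.0 to 2140.5, 2600.2 and 2622 (log2 fold change 1.71, adjusted p = 0.00206), and modSP, which acts before grass, fell from 935, 890.3 and 1116 to 519, 649 and 541 (−0.78, adjusted p = 0.0485). They were the only called genes of 20 (5% in each direction, against 1.75% higher and 0.800% lower among all genes). SPE, the last protease of the cascade, had a log2 fold change of 1.04 (adjusted p = 0.0597), and the protease gene spirit one of −0.77 (adjusted p = 0.0655). Neither passed the test, though the groups were apart in both. modSP was not called with quantile normalization, TMM or edgeR (adjusted p = 0.0572, 0.0896 and 0.0911). IM3, CG15067, Mtk and grass kept their calls in each of the 9 fits that left out 1 library. IM2 (adjusted p = 0.0976, called in 5 of 9), IM1 (adjusted p = 0.13, called in 4 of 9) and modSP (adjusted p = 0.217, called in 2 of 9) were weakest without InRCA_noHS replicate 3. The count of peptide genes was 3, 5 and 3 without InRCA_noHS replicates 1, 2 and 3, 7, 3 and 3 without InRCA_HS replicates 1, 2 and 3, and 5, 5 and 4 without control_HS replicates 1, 2 and 3. Other settings gave 3 with no intensity trend or a minimum of 1.5-fold. In all 5 peptide genes every library of the heated control cross lay above the heated InRCA libraries. IM1 stood there at 1999.5, 2810.1 and 1721, IM3 at 3789.6, 6136 and 2975 and Mtk at 2489, 1656 and 2385, and the log2 differences of heated InRCA larvae from control_HS were −2.85 in IM1 (adjusted p = 0.0242), −1.83 in IM3 (adjusted p = 0.106) and −1.39 in Mtk (adjusted p = 0.188).

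Of 20 genes of Hsp70, Hsp90 and their partners, 1 rose (5%, against 1.75% of all genes) and 1 fell (5%, against 0.800%). Hsp70Bb rose from 33.5, 134 and 42.3 to 662, 402 and 520.3 (log2 fold change 3.14, SE 0.57, adjusted p = 0.0155) and stood at 34.8, 107 and 148 in the heated control cross, below every heated InRCA library. As with InR and w, only heated InRCA larvae were high. Control_HS and unheated larvae differed in Hsp70Bb by 0.50 (log2, adjusted p = 0.636), and heated InRCA larvae exceeded control_HS by 2.64 (adjusted p = 0.0392). The source of these reads was not tested. Copies of Hsp70 are nearly identical and reads may be split between them. The other copies in the table did not pass, with Hsp70Ba at −1.12, Hsp70Bbb at −0.51 and Hsp70Bc at 0.12 on the log2 scale. Hsp83, the cytosolic Hsp90 gene, fell from 17071, 18056 and 20468 to 6626, 8453 and 8365 (log2 fold change −1.25, SE 0.18, adjusted p = 0.00582). None of the 8 small heat shock protein genes passed (median 0.01). Hsp26 was at 2697, 5515 and 3786 and 3330.3, 4764 and 3328, with overlapping groups, and Hsp68 at 1235, 1996 and 1051 and 1117, 1444 and 1557. Their log2 fold changes, −0.03 (95% interval −0.63 to 0.57) and −0.02 (−0.71 to 0.68), turn positive with quantile normalization and TMM. Hsp83 kept its call in each of the 9 fits that left out 1 library. Hsp70Bb (adjusted p = 0.08, called in 5 of 9) had its highest adjusted p without InRCA_noHS replicate 3.

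Among genes that mobilise and burn stored fat, 4 fell. CG5966, a member of the lipolysis list, fell from 11491, 11071 and 11052 to 2255, 2009.5 and 2184 (log2 fold change −2.38, SE 0.22, adjusted p = 0.000365). GRHR (AkhR), the receptor for adipokinetic hormone, which calls on fat stores during fasting, went from 609.8, 446 and 446 to 189.5, 219.6 and 249 (−1.18, adjusted p = 0.018). The fitted fall of CG5966 was 5.22-fold, and its values varied little within either group. These are 2 of 11 genes (18.2%, against 0.800% of all genes, median −0.57). Lip4, a lipase gene activated by FOXO, did not overlap between groups, at 1028, 877 and 1154 and 510.5, 402 and 659, but did not pass the test (−0.98, adjusted p = 0.116), and bmm, the main triglyceride lipase gene, had a log2 fold change of 0.09 (95% interval −0.27 to 0.46).

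Entry of fatty acids into mitochondria needs the carnitine palmitoyltransferase encoded by whd, which went from 2048, 1767 and 2062 to 988, 897 and 969 (log2 fold change −1.04, SE 0.19, adjusted p = 0.0188). CG12262 (Mcad), an acyl-CoA dehydrogenase of beta-oxidation, went from 11376, 8241 and 9075 to 4372, 4141 and 3791 (−1.21, adjusted p = 0.0305), and missed the threshold in edgeR (adjusted p = 0.0525). They are 2 of 20 beta-oxidation genes (10%, against 0.800% of all genes, median −0.28), and the thiolase gene yip2 (−0.96, adjusted p = 0.115) did not pass. Conversely CG10814, with the RefSeq synonym gamma-BBH, an enzyme of carnitine synthesis, rose from 444, 283 and 561 to 1275, 1851 and 2840.1 (2.19, adjusted p = 0.037) and stood far higher in the heated control cross, at 5455, 21901 and 16072. Atg1, the kinase that starts autophagy, fell from 2181, 1384 and 1416 to 914, 727 and 641 (−1.11, adjusted p = 0.0465). It was the only called gene of 50 for autophagy and lysosomes (2%, against 0.800% of all genes) and missed the threshold with TMM and edgeR (adjusted p = 0.069 and 0.0682). CG5966 kept its call in each of the 9 fits that left out 1 library. GRHR (adjusted p = 0.0764, called in 4 of 9) was weakest without InRCA_HS replicate 1. CG12262 (adjusted p = 0.111, called in 3 of 9) and Atg1 (adjusted p = 0.145, called in 2 of 9) had their highest adjusted p without InRCA_noHS replicate 1. CG10814 (adjusted p = 0.15, called in 2 of 9) was weakest without InRCA_noHS replicate 2. whd (adjusted p = 0.0938, called in 3 of 9) had its highest adjusted p without InRCA_noHS replicate 3. The count of fallen beta-oxidation genes was 0, 0 and 0 without InRCA_noHS replicates 1, 2 and 3, 0, 0 and 0 without InRCA_HS replicates 1, 2 and 3, and 2, 2 and 2 without control_HS replicates 1, 2 and 3. Under alternatives it was 1 with edgeR and 0 with no intensity trend or a minimum of 1.5-fold. In the lipolysis list it was 2, 1 and 1 without InRCA_noHS replicates 1, 2 and 3, 1, 1 and 2 without InRCA_HS replicates 1, 2 and 3, and 2, 2 and 3 without control_HS replicates 1, 2 and 3. With other settings it was 1 with no intensity trend or a minimum of 1.5-fold. In the control cross GRHR stood at 364, 599 and 549.6, whd at 1206, 1742 and 2108 and CG5966 at 4052, 3052 and 5908, and the log2 differences of heated InRCA larvae from control_HS were −1.17 in GRHR (adjusted p = 0.0242), −0.79 in whd (adjusted p = 0.0632) and −0.96 in CG5966 (adjusted p = 0.0479).

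**Figure D5:**
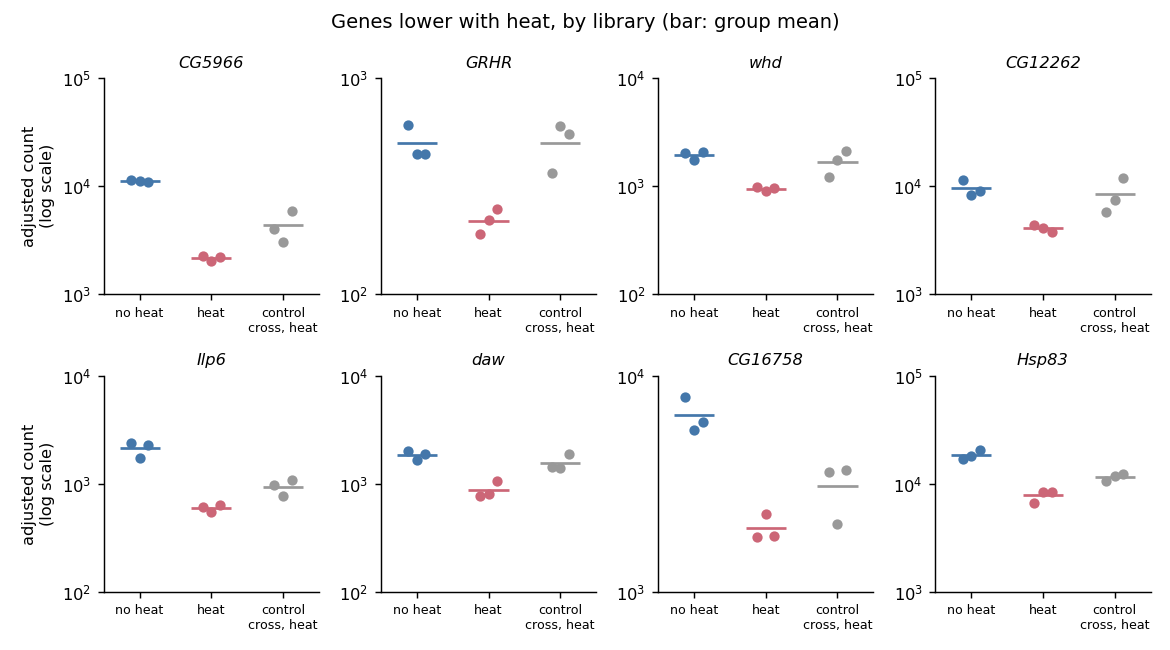
Adjusted counts on a log y axis for 8 genes that fell, 1 point per library and a bar at each group's mean. In every panel the 3 heated InRCA libraries lie below the 3 unheated ones. In all panels but CG16758 they also lie below the libraries of the heated control cross.

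The fat body also signals to other organs, and 2 of its secreted factors fell. Ilp6, an insulin-like peptide of the fat body that FOXO activates, went from 2399.6, 1747 and 2287 to 609, 554 and 631 (log2 fold change −1.83, SE 0.18, adjusted p = 0.000575), and in the control cross it stood at 980.4, 772 and 1085. daw, for an activin-like ligand, went from 2011, 1657 and 1880.0 to 776, 815 and 1064 (−1.07, SE 0.18, adjusted p = 0.0108). It stood at 1433, 1394 and 1898 in the control cross and was lower in heated InRCA larvae than there (log2 difference −0.83, adjusted p = 0.0392). They are 2 of 15 such genes (13.3%, against 0.800% of all genes). upd2, for a leptin-like signal of the fed state, was low, at 3.02, 1.04 and 2.52 and 9.11, 6.57 and 15.6, without overlap, and just missed the threshold (log2 fold change 1.82, 95% interval 0.83 to 2.81, adjusted p = 0.0655). Its relative os (upd1) was called, from 10.9, 8.24 and 10.04 to 90.9, 31.1 and 40.3 (2.21, adjusted p = 0.0319). Among 16 sugar-responsive regulators daw alone was called (6.25%, against 0.800% of all genes), and sug, a zinc finger factor of that response, had a difference of 1.12 (adjusted p = 0.259). Ilp6 kept its call in each of the 9 fits that left out 1 library. os (adjusted p = 0.118, called in 4 of 9) was weakest without InRCA_noHS replicate 2. daw (adjusted p = 0.055, called in 6 of 9) had its highest adjusted p without InRCA_noHS replicate 3.

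Of purine, serine and one-carbon genes, 5 fell. CG16758, a member of the purine list, went from 8043, 5653 and 6118 to 1785, 2305 and 1811 (log2 fold change −1.74, SE 0.24, adjusted p = 0.00432). CG6767 (Prps), whose enzyme makes the activated ribose of nucleotides, went from 10196, 7599 and 7862 to 3421, 4232 and 3416 (−1.21, adjusted p = 0.0276), and Prat2, for the first committed step of purine synthesis, from 9904, 6306 and 8135 to 3282, 4373 and 3299 (−1.14, adjusted p = 0.0248). aay, the phosphoserine phosphatase of serine synthesis (−1.32, adjusted p = 0.0236), and Nmdmc, a mitochondrial folate enzyme (−1.82, adjusted p = 0.0294), are the others of 27 genes (18.5%, against 0.800% of all genes, median −0.74), in a list made with earlier results known. The heated values of Nmdmc were 262, 724 and 222, the second well above the others, and it missed the threshold in edgeR (adjusted p = 0.0734). Purine synthesis genes that did not pass were ade5 (−0.97, adjusted p = 0.051), ade3 (−1.47, adjusted p = 0.057) and ade2 (−1.02). In the same list 1 gene rose (3.7%, against 1.75% of all genes), Adk1, an adenylate kinase (1.25, adjusted p = 0.0347). CG16758 kept its call in each of the 9 fits that left out 1 library. CG6767 (adjusted p = 0.105, called in 3 of 9), aay (adjusted p = 0.0936, called in 4 of 9), Nmdmc (adjusted p = 0.117, called in 4 of 9) and Adk1 (adjusted p = 0.137, called in 2 of 9) were weakest without InRCA_HS replicate 1. Prat2 (adjusted p = 0.104, called in 5 of 9) had its highest adjusted p without InRCA_noHS replicate 3. The count of fallen genes in the list was 1, 2 and 1 without InRCA_noHS replicates 1, 2 and 3, 1, 4 and 2 without InRCA_HS replicates 1, 2 and 3, and 6, 6 and 6 without control_HS replicates 1, 2 and 3. Other settings gave 8 with the 6 libraries alone or array quality weights, 1 with no intensity trend and 0 with a minimum of 1.5-fold.

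Several further called genes encode single metabolic enzymes and carriers. asparagine-synthetase (AsnS) rose from 1060.3, 489 and 540.2 to 3186, 5110.5 and 3985 (log2 fold change 2.62, SE 0.36, adjusted p = 0.00453). Aats-cys, the cysteinyl-tRNA synthetase gene, rose from 359.9, 335 and 324 to 861, 1021 and 824 (1.40, adjusted p = 0.00646), alone among 32 such genes (3.12%, against 1.75% of all genes). SpdS, for spermidine synthase, rose from 434, 349.6 and 361 to 889.6, 1216 and 1224 (1.53, adjusted p = 0.00662). Of the ornithine and proline route, Oat, the ornithine aminotransferase gene, fell from 12869, 9552 and 10278 to 3802, 5765 and 4366 (−1.24, adjusted p = 0.0155), and CG5840 (P5cr-2), a pyrroline carboxylate reductase gene, fell from 2160.4, 1855 and 2194 to 761, 634 and 779 (−1.51, adjusted p = 0.0155). path, an amino acid transporter gene known for growth control, fell from 1234, 1125 and 914 to 554, 619 and 476 (−0.98, adjusted p = 0.0124), as did the sugar transporter gene Slc45-1, from 2522, 2402 and 1770.1 to 1079.9, 634 and 724 (−1.48, adjusted p = 0.00726). asparagine-synthetase, SpdS, path and Slc45-1 were picked after their values had been seen. asparagine-synthetase, Aats-cys, SpdS and Slc45-1 kept their calls in each of the 9 fits that left out 1 library. Oat (adjusted p = 0.0716, called in 5 of 9) was weakest without InRCA_HS replicate 1. path (adjusted p = 0.0587, called in 6 of 9) had its highest adjusted p without InRCA_noHS replicate 2. CG5840 (adjusted p = 0.0752, called in 4 of 9) was weakest without InRCA_noHS replicate 3.

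A few detoxification genes changed. Of 75 cytochrome P450 genes, 4 were lower (5.33%, against 0.800% of all genes) and 0 higher. Cyp6d5 went from 4995, 5249 and 4559 to 1933, 2543 and 2025 (log2 fold change −1.19, adjusted p = 0.0073), Cyp28d1 from 3541, 2644 and 2147 to 859.8, 745 and 906 (−1.70, adjusted p = 0.0268), Cyp6a21 from 159.7, 138 and 122 to 43.6, 46.4 and 22.9 (−1.92, adjusted p = 0.00909) and Cyp6a2 from 624, 340.4 and 533 to 69.8, 113 and 178 (−2.10, adjusted p = 0.0386). GstD4, a glutathione S-transferase gene, rose from 7.97, 9.24 and 6.61 to 33.2, 43.5 and 53.5 (2.30, adjusted p = 0.00321), alone among 32 (3.12%, against 1.75% of all genes). Of 24 UDP-glycosyltransferase genes, Ugt36Bc rose (4.17%, against 1.75% of all genes) and CG17323 (Ugt36D1) fell (−1.17, adjusted p = 0.00726, 4.17% against 0.800%). Cyp6d5, Cyp6a21, GstD4 and CG17323 kept their calls in each of the 9 fits that left out 1 library. Cyp28d1 (adjusted p = 0.102, called in 3 of 9) had its highest adjusted p without InRCA_noHS replicate 1. Cyp6a2 (adjusted p = 0.15, called in 3 of 9) was weakest without InRCA_noHS replicate 3. The number of fallen P450 genes was 3, 2 and 2 without InRCA_noHS replicates 1, 2 and 3, 2, 2 and 3 without InRCA_HS replicates 1, 2 and 3, and 4, 4 and 4 without control_HS replicates 1, 2 and 3. Under alternatives it was 2 with no intensity trend and 0 with a minimum of 1.5-fold.

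Among the 20 largest falls were several genes with no role in the annotation used here. CG5697 had the largest, from 314, 464 and 492 to 6.98, 95.1 and 23.5 (log2 fold change −3.97, SE 0.77, adjusted p = 0.0223), with a wide spread among the heated libraries. CG4269 went from 969, 819 and 1080.3 to 168, 274 and 135 (−2.36, adjusted p = 0.00277). CG34007 (−2.12), CG14072 (−2.20), CG17739 (−1.92), CG13116 (−1.58) and CG6908 (−1.56) fell as well. The neighbouring genes of odorant-binding proteins Obp83cd (−1.52, adjusted p = 0.0156) and Obp83ef (−1.39, adjusted p = 0.0461) fell together. Obp99a, of the same family, fell from 1566, 1379.7 and 1555 to 658, 1002 and 758 (−0.92, adjusted p = 0.0188) but was higher in the control cross, at 1862, 2159 and 1902. CG4269 and CG34007 kept their calls in each of the 9 fits that left out 1 library. CG14072 (adjusted p = 0.0565, called in 5 of 9) had its highest adjusted p without InRCA_noHS replicate 1. CG6908 (adjusted p = 0.0977, called in 4 of 9) was weakest without InRCA_noHS replicate 2. CG5697 (adjusted p = 0.1, called in 4 of 9), CG17739 (adjusted p = 0.101, called in 4 of 9), CG13116 (adjusted p = 0.0707, called in 4 of 9), Obp83cd (adjusted p = 0.0727, called in 5 of 9), Obp83ef (adjusted p = 0.182, called in 2 of 9) and Obp99a (adjusted p = 0.0923, called in 4 of 9) had their highest adjusted p without InRCA_noHS replicate 3.

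Some risen genes stood apart from the heated control cross as well, as ATPCL, Ser7 and Hsp70Bb did. CG15772 was at 401, 258 and 466 in unheated, 1392, 2696 and 1665 in heated and 484, 289 and 303 in control libraries, so that only heated InRCA larvae were high. It rose by 2.34 (log2, adjusted p = 0.00305) and exceeded control_HS by 2.40 (adjusted p = 0.00409), while control_HS and unheated larvae differed by −0.06 (adjusted p = 0.926). Pu, the GTP cyclohydrolase gene of pteridine synthesis, was at 2166, 1624 and 1834, 5264, 6774 and 4009 and 2544, 1738 and 2141 in the same groups. It rose by 1.49 (adjusted p = 0.00615) and exceeded control_HS by 1.31 (adjusted p = 0.0172). bnb rose from 132, 96.7 and 148 to 762, 897 and 833 (2.74, adjusted p = 0.000583) and stood at 397, 459.6 and 218 in the control cross (1.28 against it, adjusted p = 0.0382). CG15772, bnb and CG4757 were picked after their values had been seen. CG4757 went the other way between crosses, rising from 55.2, 106 and 91.3 to 318, 303 and 236 and standing at 1802, 1491 and 2725 in the control cross (−2.77 against it, adjusted p = 0.00102). CG15772, Pu, bnb and CG4757 kept their calls in each of the 9 fits that left out 1 library.

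Several large groups had no called gene. None of 85 cytosolic ribosomal protein genes passed the test, and all had a log2 fold change below 0 (median −0.34, against −0.14 for all genes). With quantile normalization 5 of them lay above 0, and without InRCA_noHS replicate 3 or InRCA_HS replicate 1 the number was 3. Of 35 proteasome genes, 32 lay above 0 (median 0.27) and 0 passed. Genes of ribosome assembly (34, median −0.20), translation factors (42, median −0.04), the ecdysone response (23, median −0.39) and the respiratory chain with ATP synthase (72, median −0.21) had 0 called members. The storage protein gene Lsp2 was at 1036700.0, 684160.0 and 1231900.0 and 722200.0, 856320.0 and 1003400.0 in overlapping groups (log2 fold change −0.16). In simulated data of this comparison, limma called 26.5% of 98 genes changed 2-fold and 87.4% of 95 changed 4-fold, so changes under 2-fold would often have been missed at this depth and spread.

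Markers of gut, muscle, Malpighian tubule, neurons and imaginal discs had 0 called genes. The summed gut markers ranged from 17907 to 47639 in unheated and from 17027 to 45193 in heated libraries, and those of muscle from 52779 to 69548 and from 59855 to 66937. Cuticle and epidermis markers rose in 2 of 37 genes (5.41%, against 1.75% of all genes), Cpr11A and obst-A, a chitin-binding protein gene (308, 245 and 324 to 1564, 1070.5 and 643, log2 fold change 1.82, adjusted p = 0.00748). Their sum ranged from 31066 to 43578 in unheated and from 38502 to 55438 in heated libraries, and their part in other rises was not tested.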

How the data were processed

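RNA of larval fat bodies, freed from whole larvae by shearing and centrifugation, was depleted of ribosomal RNA and sequenced. The authors deposited 1 table of adjusted counts, a signal per gene that they had scaled to a common library size. Per the submitters' processing notes, TopHat 1.3.2, Bowtie 0.12.7 and Cufflinks 1.1.0 were used with genome build dm3. Counting tool and strand setting were not given in the sources used here, so reads of overlapping and antisense genes cannot be told apart. Values up to 100 gave whole reads in 99.5% of cases (within 0.1 read), so reads could be recovered for a count test, and that test was chosen after seeing the data.

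The values of all 9 libraries were fitted as log2(value + 1) with 1 mean per group in limma 3.58.1 (R 4.3.3) with an intensity trend, and p-values were adjusted by Benjamini-Hochberg over all 10372 genes, with a threshold of 0.05. Every adjusted p in the text without a tool's name comes from this fit. A minimum mean of 1 removed 0 genes. Fold changes are on the log2(value + 1) scale, which understates the change of low genes. Groups follow the labels, and the interval given with a gene is the 95% interval of the fit. Sampling error of the reads is part of the spread between libraries. On simulated data of this comparison (10153 genes), limma made 6 false calls, and edgeR 4.0.16 called 27.6% of genes changed 2-fold and 90.5% of genes changed 4-fold, with 8 false calls.

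Genes named are InR and w, the 20 largest called changes in each direction without overlap of the groups, the 10 most abundant called genes in each direction, up to 6 called members of each list by p, and some genes of interest whatever their call. The text gives a part of them, and 1 gene is not reported here. Outside this rule, and chosen after their values were seen, are HLH106, Tal, desat1, Men, os, SrpRbeta, Srp68, Spase25, Xbp1, Ire1, PEK, Atf6, sel, Manf, membrin, CG5322, CG9631, the laminin genes and trol, Hml, eater, Adh, the uncalled immune genes, SPE, spirit, the other Hsp70 copies, CG10814, yip2, ade5, ade3, ade2, asparagine-synthetase, SpdS, path, Slc45-1, Obp83ef, CG15772, bnb, CG4757 and moody. The 53 gene lists and the comparison itself were chosen with earlier results of these data known. Of the lists 48 were fixed and 5 were added to them. The added ones are those of purine, serine and one-carbon metabolism, the Golgi, nucleotide sugars, the basement membrane and phospholipids with inositol. Lists are described by counts and medians, with no test of the list. Symbols are those of the table, with current symbols in brackets for some of the genes whose reference gene names (9928 IDs matched) differ. The bracketed FASN1 and AsnS do not come from those names. Alternatives were other pseudocounts, filters, scalings and weights, a replicate block, a minimum fold, the 6 libraries alone, edgeR, and each library left out in turn. No sequence is printed, since a genome of the table's build was not used here.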

Additional observations from a re-analysis of the deposited data

How the results depend on the processing

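No called gene changed direction under any alternative that was run, and what moved was the number of calls. In the main fit 182 genes were higher and 83 lower. Counts stayed within 1.5 times of these with pseudocounts of 0.1 and 5, without a filter, with a minimum mean of 5 or 20, and with quantile normalization (256 and 85) or TMM (238 and 59). Without the intensity trend they were 111 and 34, and of the 155 named genes 78 were called against 130. With only the 6 libraries compared they were 233 and 142, and with array quality weights 244 and 146. Against a minimum of 1.5-fold, 46 genes were higher and 4 lower, 36 of them named. edgeR's quasi-likelihood test on recovered reads called 235 and 53, among them 182 and 53 genes of the main fit. With 1 of the 6 compared libraries left out in turn, 85 to 120 genes were higher and 16 to 45 lower. Without 1 control_HS library the counts were 155 to 220 and 85 to 116. Over all 9 such fits 63 to 129 of the named genes were called, and 27 to 36 of the 53 lists had a called member, against 33. The lowest counts came without InRCA_noHS replicate 2 (85 higher) and without InRCA_noHS replicate 3 (16 lower). Same-numbered libraries of the groups correlated in their deviations from the group means at 0.07, −0.14 and 0.12, and differently numbered ones at −0.245 to 0.179. With 3 libraries per group, these values cannot decide whether the numbers pair the libraries. A replicate block gave 130 higher and 56 lower. The cause of these shifts was not tested.

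Of 2009 values of named genes under alternatives without a left-out library, 1747 kept their direction and side of the threshold, 207 lost the call, 40 gained it and 15 changed sign. With a library left out the numbers were 983, 385, 13 and 14 of 1395. The changes of sign were all in uncalled genes near 0. Hsp26 turned to 0.0451 with quantile normalization, 0.0874 with TMM and 0.0494 in edgeR (log2), Hsp68 to 0.0176, 0.103 and 0.0646, and Akt1 to 0.0517, 0.0899 and 0.0769. Lsp2 turned to 0.11 with quantile normalization, Thor to 0.0228 with TMM and 0.0085 in edgeR, and chico to 0.0027 in edgeR. With weights Pepck turned to −0.0315 and Akt1 to 0.0187. With a library left out Akt1 ranged from −0.11 to 0.13, Thor from −0.34 to 0.13, Hsp26 from −0.28 to 0.23, Hsp68 from −0.21 to 0.25, Lsp2 from −0.41 to 0.0183, Pepck from −0.34 to 0.42, chico from −0.23 to 0.027 and bmm from −0.0296 to 0.23. Depth limits the 290 genes with a mean under 5 adjusted counts most, and 1643 of the 10372 genes had a mean under 20.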

Other observations

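Called genes that stand next to each other in the genome were counted from the order of genes in the Release 6 annotation, in which 9981 genes of the table were found. Of 8126 adjacent pairs, 17 had both genes called. In 11 pairs both rose, which include the collagen genes vkg and Cg25C, the Bomanin genes IM2, IM3 and CG15067, the protease genes Sp212 and CG9631, CG4325 with moody (a receptor gene of the blood-brain barrier), and CG30377 with CG12159. In 5 pairs both fell. They are the alpha-mannosidase genes CG5322 and CG6206, Obp83cd and Obp83ef, CG4269 and CG4294, CG16758 and Spn, and CG6767 and CG16719. In 1 pair, CG32557 and CG6762, the genes moved in opposite directions. No chance level was computed for these pairs.

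Genes of eye pigment and pteridine synthesis had 2 called members of 16, w and Pu (12.5%, against 1.75% of all genes, list median −0.07). A copy of w usually marks UAS transgenes. moody rose from 129, 91.5 and 104 to 502, 543 and 587 (log2 fold change 2.33, adjusted p = 0.000942).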
